A study of Mus musculus with 12 samples.

Results

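Endoplasmic reticulum (ER) folding genes and the unfolded protein response were followed through 10 genes in a mouse Eµ-myc B lymphoma line exposed to interferon-γ (IFN-γ). The genes were Hspa5, Hsp90b1, Hyou1, Sdf2l1, Manf, Pdia4, Pdia6, P4hb, Herpud1 and Xbp1. They were chosen by name, with earlier results of these data known. Shares called among them are therefore descriptions beside those of all genes. Each was taken as the row of the deposited count table whose Ensembl identifier maps to its symbol. All 10 of the 10 were found among 53379 rows. Each of the 10 also passed the filter on low counts, which left 14299 genes for testing. In Eµ-myc lymphomas the Myc oncogene is driven by the enhancer of the immunoglobulin heavy chain locus, and the line studied here had a C57BL/6 background.

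RNA was sequenced from 4 groups of 3 samples each: unstimulated cells, and cells given recombinant mouse IFN-γ at 5 ng/mL for 1 h, 6 h or 24 h. All groups were grown in RPMI medium with 10% fetal calf serum. The shorter exposures were stopped with 50 µg/mL of the neutralising antibody XMG1.2 and the cells were harvested at 24 h post stimulation per the labels, so the 1 h and 6 h groups had 1 h or 6 h of cytokine followed by a period without it. The labels do not say when the unstimulated cells were collected. In comparisons with them, a difference in time of culture therefore cannot be told apart from exposure. The labels also do not say whether the 24 h or the unstimulated cells received antibody, nor whether the 3 samples of a group were separate cultures. A p-value here thus reflects the spread among the samples of a group, and that spread may be technical. All samples come from 1 lymphoma line, and in bulk RNA fewer cells of a type and less RNA per cell cannot be told apart.

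Proteins that enter the ER are folded there by chaperones, joined by disulfide bonds through protein disulfide isomerases, and sent for degradation when they fail to fold. When unfolded proteins build up, 3 sensors in the ER membrane, IRE1 (gene Ern1), ATF6 and PERK (gene Eif2ak3), start the unfolded protein response. IRE1 splices the mRNA of Xbp1 so that it encodes an active transcription factor, ATF6 is cut to release another, and PERK slows translation and raises ATF4. ATF6 and XBP1 act on chaperone genes, many of which carry the ER stress response element (ERSE) in their promoters. B cells are known to depend on this machinery when they turn into antibody-secreting plasma cells, and loading of peptides onto MHC class I molecules takes place in the same compartment.

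The ERSE joins a CCAAT box, bound by NF-Y, to a CCACG box, bound by ATF6, with a fixed gap. The sequence searched was CCAAT, any 9 bases and CCACG, on both strands of the 250 bases upstream of each start site in a RefSeq table (build GRCm38.p6). Promoters were in that table for 8 of the 10 genes, all except Hyou1 and Manf. The motif was present in 3 of these 8 (Hspa5, Hsp90b1 and Pdia6), against 37 of all 32851 promoters of the same length (0.113%). The 10 were chosen as genes of the response that this element usually defines, so these shares are a description and were not tested. The related ERSE-II, searched as ATTGG, any base and CCACG, was present in the Herpud1 promoter and in 10 of all promoters (0.0304%). The 4 promoters with a match are shown because they carry the element by which this response is usually defined. Herpud1 is among them as the promoter with the other form, ERSE-II. Capitals mark the ERSE or ERSE-II, and each sequence is given 5′ to 3′ on the strand of its gene.
Hspa5 promoter, chr2:34771840-34772089, plus strand: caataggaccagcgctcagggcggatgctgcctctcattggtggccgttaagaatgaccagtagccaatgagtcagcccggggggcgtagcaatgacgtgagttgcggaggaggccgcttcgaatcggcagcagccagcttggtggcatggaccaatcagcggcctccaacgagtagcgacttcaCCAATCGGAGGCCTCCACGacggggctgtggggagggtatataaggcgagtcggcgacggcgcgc
Hsp90b1 promoter, chr10:86705445-86705694, minus strand: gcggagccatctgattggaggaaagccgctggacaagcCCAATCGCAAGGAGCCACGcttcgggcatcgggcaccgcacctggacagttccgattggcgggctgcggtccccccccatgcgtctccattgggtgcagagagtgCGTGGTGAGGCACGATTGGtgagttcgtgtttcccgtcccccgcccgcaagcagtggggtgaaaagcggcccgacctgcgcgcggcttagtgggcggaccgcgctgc
Pdia6 promoter, chr12:17266339-17266588, plus strand: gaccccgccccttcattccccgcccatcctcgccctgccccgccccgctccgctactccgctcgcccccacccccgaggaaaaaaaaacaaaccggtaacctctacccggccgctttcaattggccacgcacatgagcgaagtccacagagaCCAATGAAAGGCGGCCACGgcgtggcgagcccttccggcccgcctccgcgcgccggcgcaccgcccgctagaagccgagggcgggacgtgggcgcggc
Herpud1 promoter, chr8:94386179-94386428, plus strand: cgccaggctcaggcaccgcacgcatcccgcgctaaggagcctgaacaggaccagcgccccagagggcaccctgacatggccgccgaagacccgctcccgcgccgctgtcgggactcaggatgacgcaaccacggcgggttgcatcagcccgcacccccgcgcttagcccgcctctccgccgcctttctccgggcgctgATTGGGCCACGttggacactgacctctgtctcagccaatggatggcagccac
The Hspa5 match lay 65 to 47 bases before the RefSeq start, the Pdia6 match 98 to 80 bases and the Herpud1 match 52 to 42 bases. Hsp90b1 carried a pair of matches, at 212 to 194 bases on the strand of the gene and at 107 to 89 bases on the opposite strand, where the capitals read in reverse complement. The shorter boxes were common: CCAAT was in 7 of the 8 promoters and in 33.8% of all promoters, and CCACG in 6 of the 8 and in 28.3%; every ERSE contains both. The unfolded protein response element TGACGTGG was in 0 of the 8 (0.563% of all promoters). These are matches of letters within 250 bases of 1 annotated start per gene, and nothing about binding follows from a match or from its absence.

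Library totals ran from 49440358 to 67096610 counts, and the 10 genes had between 693 counts (Sdf2l1) and 81771 counts (Hsp90b1) per library. Irf1, a direct target of IFN-γ signalling, averaged 221.1 ± 8.92 CPM in 24 h cells and 10.6 ± 0.245 CPM in unstimulated cells (CPM are counts made comparable between libraries by TMM-scaled totals; SD, n = 3 each). The MHC class I gene H2-K1 averaged 45.1 ± 2.71 CPM in unstimulated cells, 63.9 ± 2.55 after 1 h, 101.0 ± 2.63 after 6 h and 267.1 ± 8.50 after 24 h (SD, n = 3 each). All 10 B cell markers listed, Cd79a and Pax5 among them, were expressed and passed the filter on low counts. Of the 8 T cell markers 2, Cd4 and Cd8a, had 0 counts in every library, as did 1 of the 9 myeloid markers, Csf3r. The other markers of these lists had counts. Cd2 of the T cell markers averaged 25.0 CPM and Cd68 of the myeloid markers 4.28 CPM over all libraries. IFNg_6h replicate 3 stood apart from the other libraries on the second principal component, which held 7.84% of the variance, so results at 6 h are also given without it.

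Of the 10 genes, Hsp90b1 was the most abundant and Xbp1 the least. Hsp90b1, the ER form of HSP90, stood at 293.1 ± 1.69 CPM per kb of exon in unstimulated cells (SD, n = 3 here and for the levels that follow). Hspa5, which encodes the chaperone BiP, had 125.5 ± 6.01 CPM per kb and P4hb, a protein disulfide isomerase, 121.6 ± 5.81 CPM per kb; the libraries of these neighbours in the order overlapped. No other pair of neighbours overlapped in unstimulated cells. Herpud1, a membrane protein of ER-associated degradation, had 107.5 ± 6.44 CPM per kb, Pdia6 62.7 ± 3.76 and Pdia4 53.8 ± 1.78. Hyou1, a large HSP70 relative that exchanges the nucleotide of BiP, had 35.8 ± 2.02 CPM per kb and the secreted ER factor Manf 24.3 ± 1.47. Sdf2l1, a partner of ER J-proteins, had 13.6 ± 0.804 CPM per kb and the transcription factor Xbp1 6.78 ± 0.971. Among the 14299 genes tested, these length-scaled levels ran from the 60.4 percentile (Xbp1) to the 99.2 percentile (Hsp90b1).

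**Figure D1:**
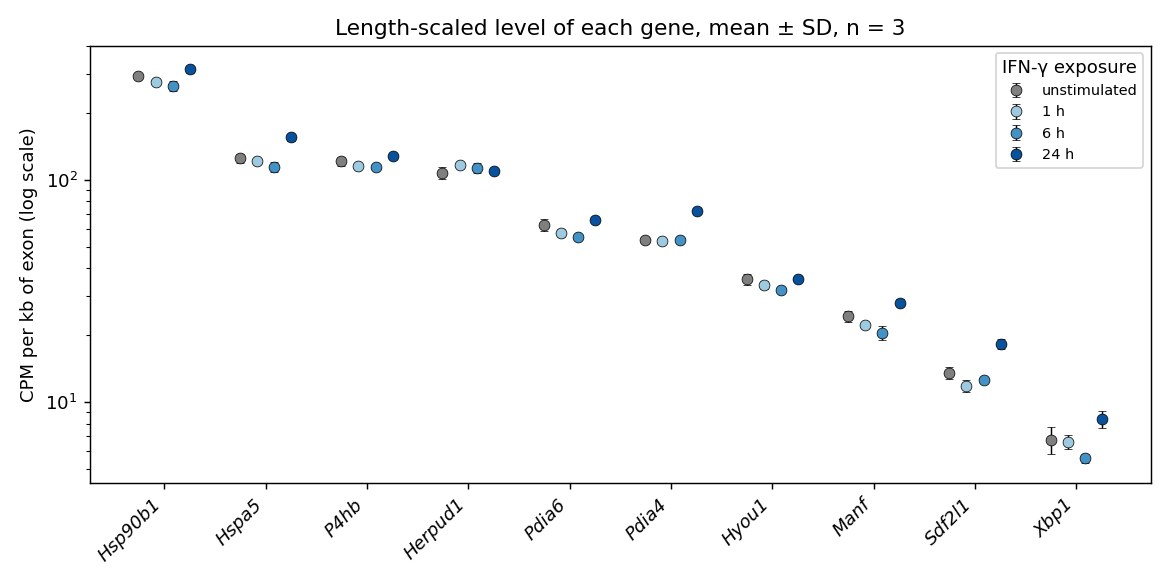
Level of each of the 10 genes per kb of exon (CPM per kb, log axis) in the 4 groups, as mean ± SD over 3 libraries. The genes span from Hsp90b1 at 293.1 CPM per kb to Xbp1 at 6.78 CPM per kb in unstimulated cells, and this order is far wider than any difference between the groups.

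The summed level of the 10 genes was 3084, 2948 and 3136 CPM in unstimulated cells, 2918, 2968 and 2909 CPM after 1 h, 2774, 2767 and 2905 CPM after 6 h, and 3383, 3420 and 3307 CPM after 24 h. The 24 h libraries were the highest and did not overlap any other group, while the 6 h libraries all lay below the unstimulated ones.

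After 24 h of IFN-γ, 5 of the 10 genes rose relative to unstimulated cells, and the other 5 did not pass the test. The 5 were Pdia4, Sdf2l1, Hspa5, Xbp1 and Manf, with rises between 1.15-fold and 1.35-fold. Genes are called at an adjusted p under 0.05 in edgeR's quasi-likelihood test, with Benjamini-Hochberg adjustment over all 14299 genes; by this rule 18.7% of all genes tested were called, 10.3% as higher and 8.35% as lower. The median log2 fold change was 0.15 over the 10 genes and -0.0028 over all genes tested. All 3 libraries of 24 h lay above all 3 unstimulated libraries in 6 of the 10 genes, against 17.2% of all genes tested. As the 10 were chosen with earlier results of these data known, these shares are descriptions and were not tested.

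Hspa5 (ENSMUSG00000026864.13, chromosome 2, 34771970 to 34777547, plus strand, GRCm38) encodes BiP, the HSP70 of the ER lumen and a restraint on the 3 sensors. Its levels were 536.3, 502.8 and 552.7 CPM in unstimulated cells, 510.7, 514.7 and 512.6 CPM after 1 h, 466.2, 470.8 and 510.5 CPM after 6 h, and 672.4, 669.6 and 630.5 CPM after 24 h. The 24 h libraries lay above the other 9. The log2 fold change of 24 h over unstimulated cells was 0.31 ± 0.04 (SE; edgeR adjusted p = 4.95e-06).

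Hsp90b1 (ENSMUSG00000020048.13, chromosome 10, 86690209 to 86705509, minus strand) encodes GRP94, which folds among others Toll-like receptors and integrins. It had 1175, 1182 and 1189 CPM in unstimulated cells, 1142, 1123 and 1088 CPM after 1 h, 1034, 1040 and 1132 CPM after 6 h, and 1276, 1312 and 1216 CPM after 24 h. The groups again did not overlap between 24 h and unstimulated cells, but the difference was small, with a log2 fold change of 0.10 ± 0.04 (edgeR adjusted p = 0.0975), and it did not pass. Without IFNg_24h replicate 3, the lowest of its group, the adjusted p was 0.0487.

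Hyou1 (ENSMUSG00000032115.14, chromosome 9, 44379490 to 44392369, plus strand), also called GRP170, stood at the same level in 24 h and unstimulated cells. It had 264.4, 241.9 and 269.2 CPM in unstimulated cells, 231.7, 248.4 and 250.7 CPM after 1 h, 234.4, 230.0 and 225.3 CPM after 6 h, and 253.5, 253.8 and 267.7 CPM after 24 h. The means were 258.4 ± 8.08 CPM in 24 h cells and 258.5 ± 14.6 CPM in unstimulated cells (SD, n = 3 each; edgeR adjusted p = 0.994).

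Sdf2l1 (ENSMUSG00000022769.7, chromosome 16, 17130138 to 17132383, minus strand), which keeps BiP substrates from aggregating together with an ER J-protein, showed one of the largest changes of the 10. It had 15.1, 14.1 and 15.9 CPM in unstimulated cells, 12.2, 13.8 and 13.2 CPM after 1 h, 13.9, 13.8 and 14.3 CPM after 6 h, and 21.2, 19.0 and 20.5 CPM after 24 h. Every 24 h library was above all 9 others. The log2 fold change of 24 h over unstimulated cells was 0.43 ± 0.07 (edgeR adjusted p = 8.83e-05).

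Manf (ENSMUSG00000032575.16, chromosome 9, 106838312 to 106891979, minus strand) encodes a small ER protein that binds BiP and can be secreted under stress. Its levels were 83.4, 82.0 and 91.6 CPM in unstimulated cells, 76.4, 81.0 and 78.3 CPM after 1 h, 70.3, 68.2 and 78.2 CPM after 6 h, and 95.1, 100.3 and 101.2 CPM after 24 h. The 24 h libraries were the highest of the 12, and IFNg_1h replicate 1 was the one library outside the 6 h group that lay below any 6 h library. The log2 fold change was 0.21 ± 0.05 for 24 h over unstimulated cells (edgeR adjusted p = 0.00551). The annotated Manf locus overlaps Dcaf1 on the opposite strand and Rbm15b on its own strand, which had 130781 and 68965 counts in all against 58122 for Manf, and the strand setting of the counting is not given in the sources used here, so the values of Manf are uncertain.

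Among the protein disulfide isomerases, Pdia4 rose while Pdia6 and P4hb did not pass the test. Pdia4 (ENSMUSG00000025823.9, chromosome 6, 47796141 to 47813430, minus strand), also called ERp72, had 129.1, 124.6 and 133.2 CPM in unstimulated cells, 124.4, 128.1 and 129.8 CPM after 1 h, 125.9, 127.9 and 132.5 CPM after 6 h, and 169.3, 178.5 and 174.0 CPM after 24 h. The 9 libraries of the other 3 groups lay between 124.4 and 133.2 CPM, and the 24 h libraries stood clear of them. The log2 fold change was 0.43 ± 0.04 (edgeR adjusted p = 4.38e-09), the smallest p of the 10 genes in this comparison.

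Pdia6 (ENSMUSG00000020571.12, chromosome 12, 17266545 to 17284770, plus strand), which also limits IRE1 signalling, had 245.4, 218.7 and 239.8 CPM in unstimulated cells, 212.8, 225.9 and 208.2 CPM after 1 h, 206.9, 205.6 and 212.5 CPM after 6 h, and 247.2, 244.3 and 246.5 CPM after 24 h. P4hb (ENSMUSG00000025130.11, chromosome 11, 120560298 to 120573253, minus strand), the isomerase PDI itself and a subunit of prolyl 4-hydroxylase, had 353.5, 329.2 and 361.0 CPM in unstimulated cells, 325.0, 337.9 and 325.6 CPM after 1 h, 326.9, 327.2 and 330.7 CPM after 6 h, and 367.9, 355.6 and 371.4 CPM after 24 h. For both genes the 24 h and unstimulated libraries overlapped. Their log2 fold changes of 24 h over unstimulated cells were 0.07 ± 0.04 and 0.07 ± 0.04 (edgeR adjusted p = 0.310 and 0.261), and with the trend of each library on GC content removed the adjusted p of P4hb was 0.0377.

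Herpud1 (ENSMUSG00000031770.16, chromosome 8, 94386438 to 94395377, plus strand), the one member of ER-associated degradation among the 10, had another order of groups. It had 260.7, 233.6 and 258.4 CPM in unstimulated cells, 261.9, 274.9 and 279.1 CPM after 1 h, 276.3, 267.0 and 250.6 CPM after 6 h, and 254.0, 256.9 and 254.0 CPM after 24 h. Its mean was lowest in unstimulated cells and highest after 1 h, where the others had their highest mean at 24 h, or, for Hyou1, in unstimulated and 24 h cells alike. None of its 6 comparisons passed the test, and the log2 fold change of 24 h over unstimulated cells was 0.02 (edgeR adjusted p = 0.782).

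Xbp1 (ENSMUSG00000020484.18, chromosome 11, 5520659 to 5525893, plus strand) had 21.5, 19.2 and 25.4 CPM in unstimulated cells, 21.1, 20.4 and 23.3 CPM after 1 h, 19.0, 17.3 and 18.1 CPM after 6 h, and 26.4, 30.0 and 25.5 CPM after 24 h. The highest unstimulated library nearly met the lowest 24 h library. The log2 fold change of 24 h over unstimulated cells was 0.31 ± 0.08 (edgeR adjusted p = 0.0117), but it did not pass when unstimulated replicate 1, unstimulated replicate 2 or IFNg_24h replicate 2 was left out (adjusted p = 0.0503, 0.0709 and 0.0920). A count per gene covers the spliced and the unspliced form of Xbp1 mRNA alike, so splicing by IRE1 is not measured here.

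**Figure D2:**
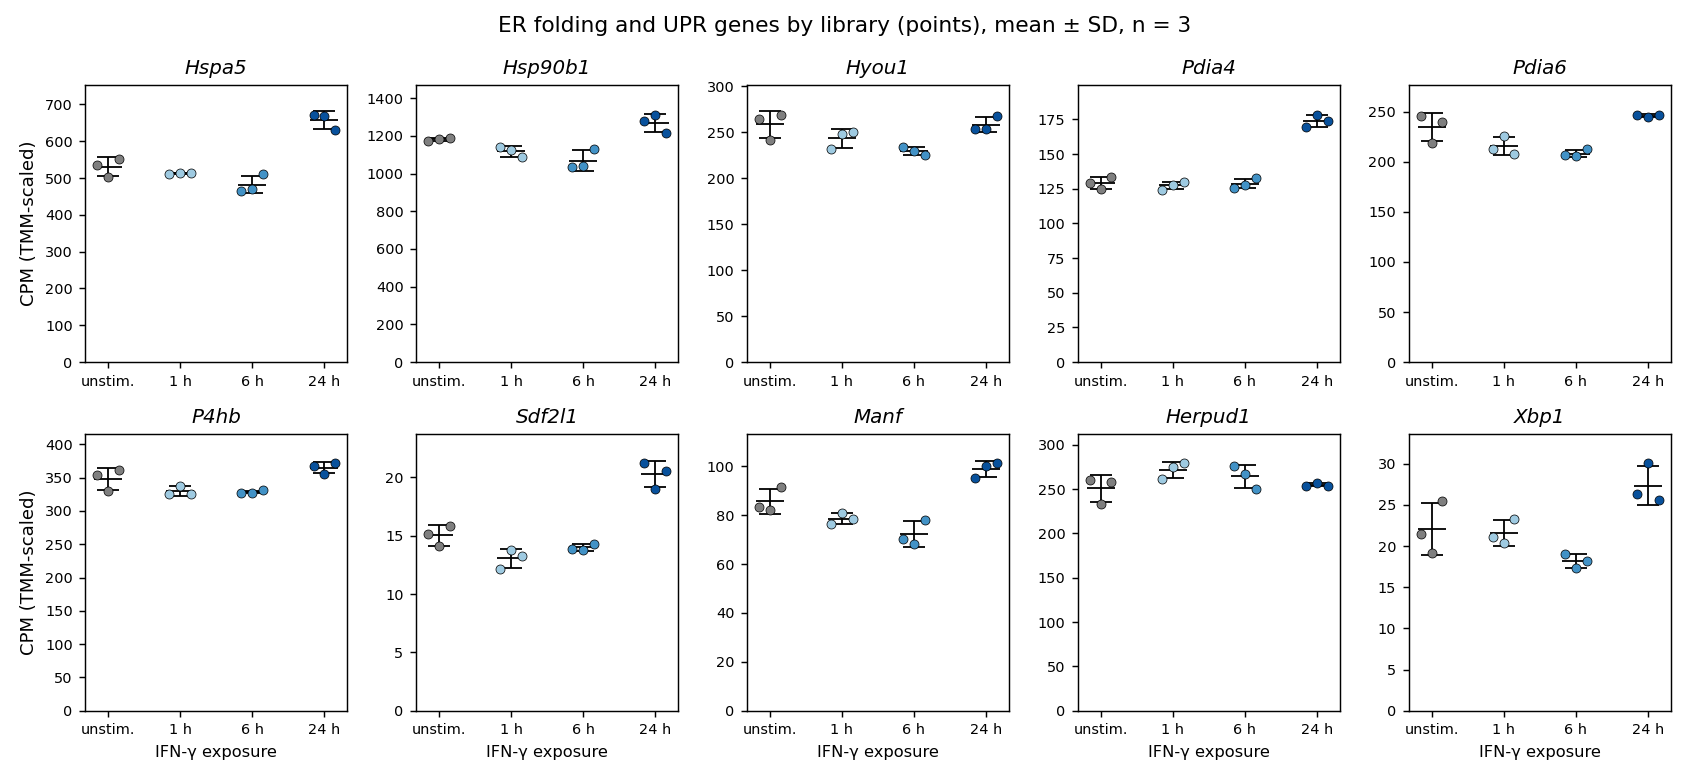
CPM after TMM scaling of each gene in every library (points) with mean ± SD over 3 libraries, from unstimulated cells on the left to 24 h of IFN-γ on the right, each axis starting at 0. Pdia4, Sdf2l1 and Hspa5 stand clear of the other groups at 24 h, Hyou1 has the same mean at both ends, and Herpud1 is highest after 1 h.

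After 6 h of IFN-γ followed by antibody, 3 of the 10 genes were lower than in unstimulated cells: Manf, Hyou1 and Pdia6. In this comparison 1.59% of all genes tested were called, 0.427% as lower and 1.17% as higher. The median log2 fold change was -0.14 over the 10 genes and 0 over all genes, and 9 of the 10 fold changes were below 0, Herpud1 being the exception at 0.08. In 5 genes (the 3 called, Hsp90b1 and Xbp1) the 6 h and unstimulated libraries did not overlap, against 8.12% of all genes with the 6 h libraries below.

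Manf averaged 72.2 ± 5.26 CPM in 6 h cells and 85.6 ± 5.16 CPM in unstimulated cells (SD, n = 3 each), a log2 fold change of -0.25 ± 0.05 (edgeR adjusted p = 0.0117). Hyou1 averaged 229.9 ± 4.58 CPM in 6 h cells and 258.5 ± 14.6 CPM in unstimulated cells, with -0.17 ± 0.04 (edgeR adjusted p = 0.04996). Pdia6 averaged 208.3 ± 3.65 CPM in 6 h cells and 234.6 ± 14.1 CPM in unstimulated cells, with -0.17 ± 0.04 (edgeR adjusted p = 0.0427). The remaining fold changes ran from -0.28 ± 0.09 for Xbp1 (adjusted p = 0.108) to 0.08 for Herpud1 (adjusted p = 0.477), and none passed in edgeR. With DESeq2 4 of the 10 were called lower, Hsp90b1 being the one added (adjusted p = 0.0320). With every gene of at least 1 count in any library kept in edgeR 5 were called lower, with Hsp90b1 (adjusted p = 0.0239) and Xbp1 (adjusted p = 0.00980) added.

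These 3 calls were sensitive to single libraries: 1 was left without unstimulated replicate 1, and 0 without unstimulated replicate 3, IFNg_6h replicate 1 or IFNg_6h replicate 2. Hyou1 had an adjusted p of 0.222 without unstimulated replicate 1, 0.231 without replicate 3, and 0.0932, 0.146 and 0.0567 without IFNg_6h replicate 1, 2 or 3. For Pdia6 it was 0.249 and 0.170 without unstimulated replicate 1 or 3, and 0.140 and 0.166 without IFNg_6h replicate 1 or 2. For Manf it was 0.107 without unstimulated replicate 3, and 0.0696 and 0.108 without IFNg_6h replicate 1 or 2. In a fit to the 6 libraries compared none of the 3 passed (adjusted p = 0.125 for Hyou1 and Pdia6, 0.0635 for Manf). Without IFNg_6h replicate 3, the library that stood apart, 4 of the 10 genes were called, all lower, with Hspa5 and Hsp90b1 added (adjusted p = 0.0130 and 0.00662) and Hyou1 lost; without unstimulated replicate 2, the lowest of its group in most of the 10, 5 were called lower, with Hspa5 and Xbp1 added (adjusted p = 0.0377 and 0.0189). Across all genes the log2 fold change of 6 h over unstimulated cells had a Spearman correlation of -0.19 with GC content and 0.13 with exon length, as a description over genes of the same libraries; with the GC trend removed 5 of the 10 were called lower, Hspa5 (adjusted p = 0.0467) and Hsp90b1 (adjusted p = 0.00845) among them.

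After 1 h of IFN-γ followed by antibody, no difference from unstimulated cells was called in the 10 genes. With edgeR 0 of the 10 passed, with DESeq2 also 0, and 4 had an unadjusted p under 0.05 (Pdia6, Sdf2l1, Manf and Herpud1); 0.42% of all genes tested were called. The log2 fold changes ran from -0.20 for Sdf2l1 to 0.12 for Herpud1, with a median of -0.08. As after 6 h, 9 of the 10 were below 0, Herpud1 being the exception, while 49.9% of all genes tested were above 0. The 1 h and 6 h comparisons share the unstimulated libraries. Between the blocked exposures, 6 h over 1 h, 0 of the 10 passed with edgeR or DESeq2, 2 had an unadjusted p under 0.05 (Manf and Xbp1), and 0.0979% of all genes tested were called. A p above the threshold does not show that the groups were equal.

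Set against the blocked exposures, 24 h of continuous IFN-γ gave a wider set of rises than against unstimulated cells. Relative to 6 h, 9 of the 10 genes were higher, all except Herpud1, where 16.5% of all genes tested were called, 8.92% as higher. Relative to 1 h, 8 of the 10 were higher, all except Hyou1 and Herpud1, where 18.9% of all genes were called, 10.2% as higher and 8.78% as lower. The median log2 fold change of the 10 was 0.34 against 6 h and 0.26 against 1 h, beside -0.0026 and -0.0047 over all genes tested. The comparisons share the 24 h libraries, so they are not separate evidence, and each is given by its own values.

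Xbp1 had the largest difference between 24 h and 6 h, with 27.3 ± 2.39 CPM in 24 h cells and 18.1 ± 0.869 CPM in 6 h cells (SD, n = 3 each), a log2 fold change of 0.59 ± 0.09 (edgeR adjusted p = 1.11e-05). Sdf2l1 had the largest between 24 h and 1 h, with 20.3 ± 1.11 CPM in 24 h cells and 13.1 ± 0.807 CPM in 1 h cells, a log2 fold change of 0.63 (edgeR adjusted p = 1.84e-07). Hspa5 was 1.36-fold and Pdia4 1.35-fold higher in 24 h than in 6 h cells (edgeR adjusted p = 7.19e-09 and 4.18e-09). The genes without a call against unstimulated cells passed here with smaller changes. Hsp90b1 was higher by 0.25 on the log2 scale than after 6 h (edgeR adjusted p = 8.60e-05), Pdia6 by 0.24 (0.000207), Hyou1 by 0.17 (0.00876) and P4hb by 0.15 (0.00912). Hyou1 did not pass without IFNg_24h replicate 3 (adjusted p = 0.0555); without IFNg_6h replicate 3 all 9 were called. Herpud1 had 255.0 ± 1.68 CPM in 24 h cells and 276.3, 267.0 and 250.6 CPM in the 6 h libraries (adjusted p = 0.481).

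**Figure D3:**
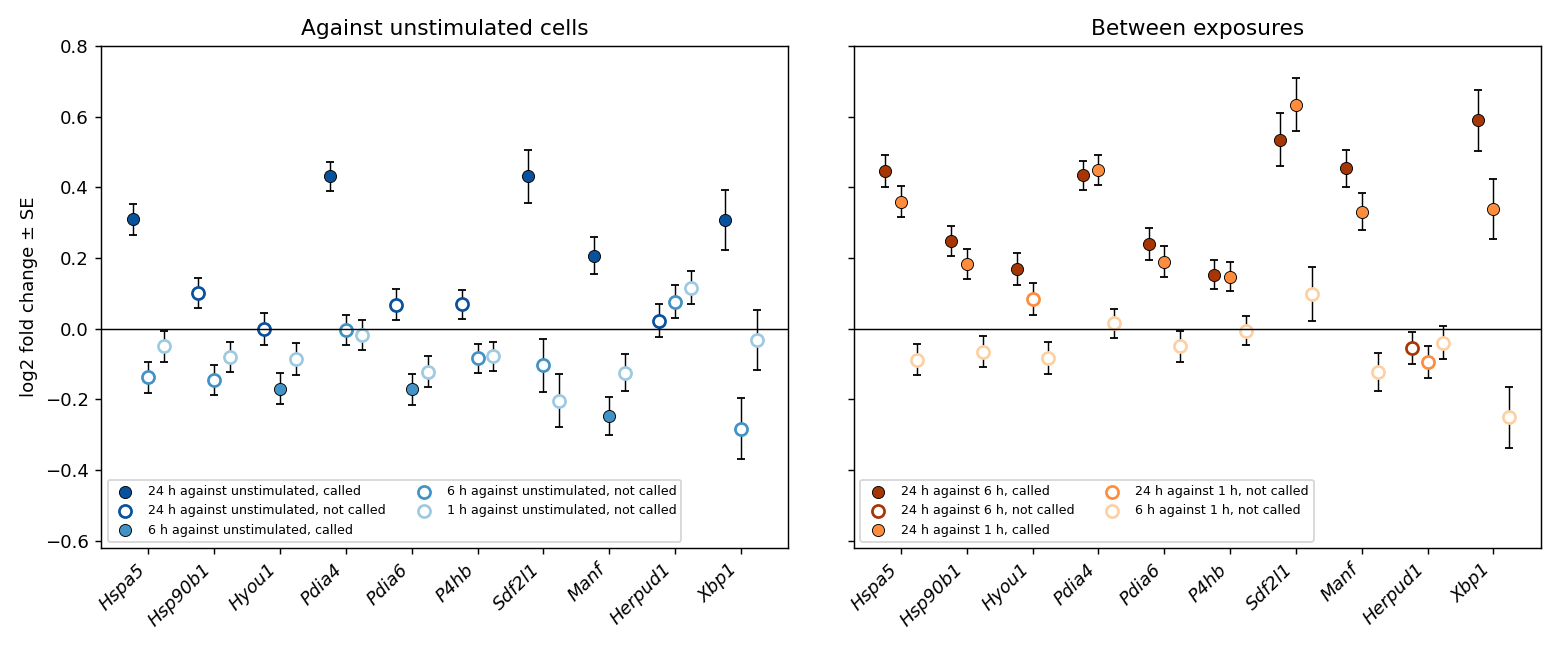
Log2 fold change ± SE of each gene for the 3 comparisons with unstimulated cells (left) and the 3 comparisons between exposures (right); filled points passed an edgeR adjusted p under 0.05, open points did not. Against unstimulated cells 5 genes are filled above 0 for 24 h and 3 below 0 for 6 h, and against 6 h all genes except Herpud1 are filled above 0.

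The 10 genes also varied from library to library within a group. After subtraction of each group mean, 40 of the 45 pairs of genes had a positive Pearson r over the 12 libraries, with a median of 0.46 and a range of -0.51 (Hyou1 with Hsp90b1) to 0.86 (Pdia6 with P4hb). Pdia4 followed the mean of the other 9 most closely (r = 0.78) and Hsp90b1 least (r = 0.10). The widest shifts of the whole set lay in the unstimulated group, at -0.08 on the log2 scale for replicate 2 and 0.07 for replicate 3. By the same measure the genes outside the set most like its mean, out of 7747 with at least 10 CPM, were Rpl7a (r = 0.938), Mad2l2 (0.932), Med17 (0.926), Emc4 (0.925), Rpl17 (0.925) and Slc25a5 (0.925). These are descriptions over 12 libraries that share depth and scaling, and none of the 6 rose at 24 h against unstimulated cells: Rpl7a had a log2 fold change of -0.17 (edgeR adjusted p = 0.00527) and the other 5 did not pass.

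Beyond the 10 genes, 8 lists of the ER pathway were counted, with 131 genes, of which 124 were tested. After 24 h, 19 of the 124 were higher and 8 lower than in unstimulated cells, 21.8% in all beside 18.7% of all genes tested, with a median log2 fold change of 0.01. The share called in either direction was thus near the background. The higher calls were a larger share than the 10.3% of all genes, and the lower calls a smaller share than the 8.35%. After 6 h, 3 were called, all lower, 2.42% beside 1.59% of all genes. After 1 h edgeR called 0 of the 124, DESeq2 called 1, edgeR without unstimulated replicate 2 called 1, and 5 had an unadjusted p under 0.05. Relative to 6 h, 25 of the 124 were higher after 24 h, a larger share than the 8.92% of all genes. Lower calls were 7 of the 124, a smaller share than the 7.63% of all genes. Without IFNg_24h replicate 3 the higher and lower calls were 15 and 6. These shares were not tested.

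Among 8 tested genes of the sensors and the proteases that activate ATF6, 2 were higher after 24 h. Of all genes tested 10.3% were higher. Rtcb, the ligase that joins Xbp1 mRNA after IRE1 has cut it, had a log2 fold change of 0.17 ± 0.04 (edgeR adjusted p = 0.00663). Atf6b, a relative of ATF6, had 0.15 ± 0.05 (adjusted p = 0.0452), but not when unstimulated replicate 2 or 3 (0.0722 and 0.152) or IFNg_24h replicate 2 or 3 (0.0805 and 0.180) was left out. The sensors themselves did not pass at 24 h against unstimulated cells (SD, n = 3 each). Ern1 averaged 34.3 ± 2.41 CPM in 24 h cells and 31.6 ± 0.758 in unstimulated cells (edgeR adjusted p = 0.249). Atf6 averaged 209.2 ± 1.52 CPM in 24 h cells and 222.6 ± 4.63 in unstimulated cells (0.196). Eif2ak3 averaged 100.5 ± 2.35 CPM in 24 h cells and 104.6 ± 1.10 in unstimulated cells (0.359). For 6 h against unstimulated cells, Atf6 had a log2 fold change of 0.09 ± 0.05 (edgeR adjusted p = 0.394). Without IFNg_6h replicate 3 it was called higher, at 0.15 (edgeR adjusted p = 0.0280). Against the blocked exposures Atf6 was lower in 24 h cells, at -0.18 ± 0.05 on the log2 scale relative to 6 h (edgeR adjusted p = 0.00703) and -0.15 ± 0.05 relative to 1 h (adjusted p = 0.0256). The call relative to 6 h was not made when IFNg_6h replicate 1 or 2 was left out (0.0512 and 0.0975). Eif2ak3 had -0.12 ± 0.04 relative to 6 h, with an adjusted p of 0.0509 in edgeR and 0.0203 in DESeq2, and 0.0493 in edgeR without IFNg_6h replicate 3; Ern1 did not pass in either.

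In the PERK branch, 3 of 12 tested genes were higher after 24 h, beside 10.3% of all genes tested. Atf3, a stress-induced transcription factor, had 6.28, 5.51 and 5.16 CPM in 24 h cells and 1.28, 0.881 and 1.34 CPM in unstimulated cells, without overlap, a log2 fold change of 2.27 ± 0.21 (edgeR adjusted p = 2.87e-09). It had the largest change of the 124 pathway genes. Ddit3, which encodes CHOP, averaged 4.68 ± 0.151 CPM in 24 h cells and 3.31 ± 0.430 CPM in unstimulated cells (adjusted p = 0.00758; 0.0596 without unstimulated replicate 3). Ppp1r15a, the phosphatase subunit GADD34 that restarts translation, had 0.31 ± 0.08 on the log2 scale (adjusted p = 0.00751; 0.0612 without unstimulated replicate 1 and 0.0855 without IFNg_24h replicate 1). Atf4 mRNA did not pass at 24 h (-0.09, adjusted p = 0.224; 0.0303 without IFNg_24h replicate 3). Chac1, a target of ATF4, had 0 to 8 counts per library and was not tested.

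The list of ER J-proteins and BiP cofactors, which also held Creld2 and Cnpy3, gave 3 higher and 1 lower of 14 tested, beside 10.3% and 8.35% of all genes tested. Creld2, an ER stress gene with a thioredoxin-like motif, had 25.6, 27.2 and 28.1 CPM in 24 h cells and 18.7, 16.4 and 20.4 CPM in unstimulated cells, a log2 fold change of 0.54 ± 0.08 (edgeR adjusted p = 4.99e-06). The J-proteins Dnajb9 and Dnajc3, which stimulate BiP, had 0.40 ± 0.07 and 0.23 ± 0.05 (adjusted p = 0.000193 and 0.000511). Cnpy3, a cochaperone of GRP94 for Toll-like receptors, was lower, with 30.1 ± 1.05 CPM in 24 h cells and 34.5 ± 1.36 CPM in unstimulated cells (adjusted p = 0.0213).

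Lectin chaperones and glucosidases gave 3 higher of 10 tested and isomerases 4 higher and 2 lower of 18 tested. Among all genes tested 10.3% were higher and 8.35% lower. Calr, which encodes calreticulin, had 746.8, 753.8 and 791.2 CPM in 24 h cells and 621.6, 592.8 and 646.8 CPM in unstimulated cells, a log2 fold change of 0.30 ± 0.04 (edgeR adjusted p = 7.64e-06). Pdia3, the isomerase ERp57, had 424.0, 435.8 and 412.3 CPM in 24 h cells and 336.9, 342.7 and 337.6 CPM in unstimulated cells, a log2 fold change of 0.32 ± 0.04 (adjusted p = 1.22e-06). Both proteins belong to the complex that loads peptides onto MHC class I. Uggt1, which marks unfolded glycoproteins for another round with these chaperones, had 0.22 ± 0.04 (adjusted p = 0.000165). Canx, the membrane-bound relative of Calr, had 0.12 ± 0.04 (adjusted p = 0.0313), but did not pass when unstimulated replicate 1 or 3 (0.0701 and 0.0847) or IFNg_24h replicate 1 or 2 (0.0778 and 0.0951) was left out, nor with the GC trend removed, where its log2 fold change was 0.08 (adjusted p = 0.112). The oxidase Ero1lb had 0.30 ± 0.06 (adjusted p = 0.000370), while Txndc11 was lower, at -0.34 ± 0.04 (adjusted p = 9.42e-07).

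Degradation and transport genes were called in both directions, as were all genes tested, with 10.3% higher and 8.35% lower after 24 h. Of 25 tested genes of ER-associated degradation 2 were higher and 3 lower after 24 h. Derl3, a derlin of the export channel, had 4.69 ± 0.278 CPM in 24 h cells and 3.21 ± 0.254 CPM in unstimulated cells (0.55 ± 0.14, edgeR adjusted p = 0.00570), Sel1l, the adaptor of the ligase HRD1, was lower (-0.24 ± 0.05, adjusted p = 0.000425), and Syvn1, which encodes HRD1, did not pass (-0.06, adjusted p = 0.407). The mannosidase Man1b1 was also lower, at -0.17 (adjusted p = 0.00367). In the translocon list 1 was higher (Sec11c of the signal peptidase, 0.22, adjusted p = 0.000938) and 1 lower (Ssr2, -0.18, adjusted p = 0.00591; 0.0822 without unstimulated replicate 3) of 22, and among KDEL receptors and coat proteins 1 was higher (Arf4, 0.30, adjusted p = 2.10e-05) and 1 lower (Sec24d, -0.44, adjusted p = 0.00171) of 15.

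The 3 pathway genes called after 6 h were Ssr2, Pdia3 and Atf4, all lower. Pdia3 averaged 299.2 ± 11.2 CPM in 6 h cells and 339.1 ± 3.17 CPM in unstimulated cells, a log2 fold change of -0.18 ± 0.04 (edgeR adjusted p = 0.0221), so it was lower after 6 h and higher after 24 h than in unstimulated cells, and 24 h over 6 h gave 0.50 (edgeR adjusted p = 2.48e-10). Atf4 had -0.18 ± 0.05 (adjusted p = 0.0457) and Ssr2 -0.22 ± 0.05 (adjusted p = 0.0133). Each call was lost in the fit to the 6 libraries compared (adjusted p = 0.0700 for Pdia3, 0.0908 for Atf4 and 0.0635 for Ssr2). Pdia3 also did not pass when unstimulated replicate 1 or 3 (0.0780 and 0.0670) or IFNg_6h replicate 1 or 2 (0.0974 and 0.139) was left out. The same held for Atf4 with unstimulated replicate 1 or 2 (0.168 and 0.121) and IFNg_6h replicate 1 or 2 (0.129 and 0.172) left out, and with the exon length trend (0.0755) or the GC trend (0.0578) removed, and for Ssr2 without unstimulated replicate 3 (0.120) and IFNg_6h replicate 2 (0.105). Calr had -0.15 ± 0.04 (edgeR adjusted p = 0.0826) and gained a call as lower in some alternatives. These were DESeq2 (0.0365), and edgeR with at least 1 count in any library (0.0210) or with the replicate block and the GC trend removed (0.0430). It was also called without unstimulated replicate 2 (0.0335) or IFNg_6h replicate 3 (0.00574). Without IFNg_6h replicate 3, 6 pathway genes were called, 2 higher, Atf6 among them, and 4 lower, Calr among them. Only 1 was called without unstimulated replicate 1 or 3 or IFNg_6h replicate 1, and 0 without IFNg_6h replicate 2.

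**Figure D4:**
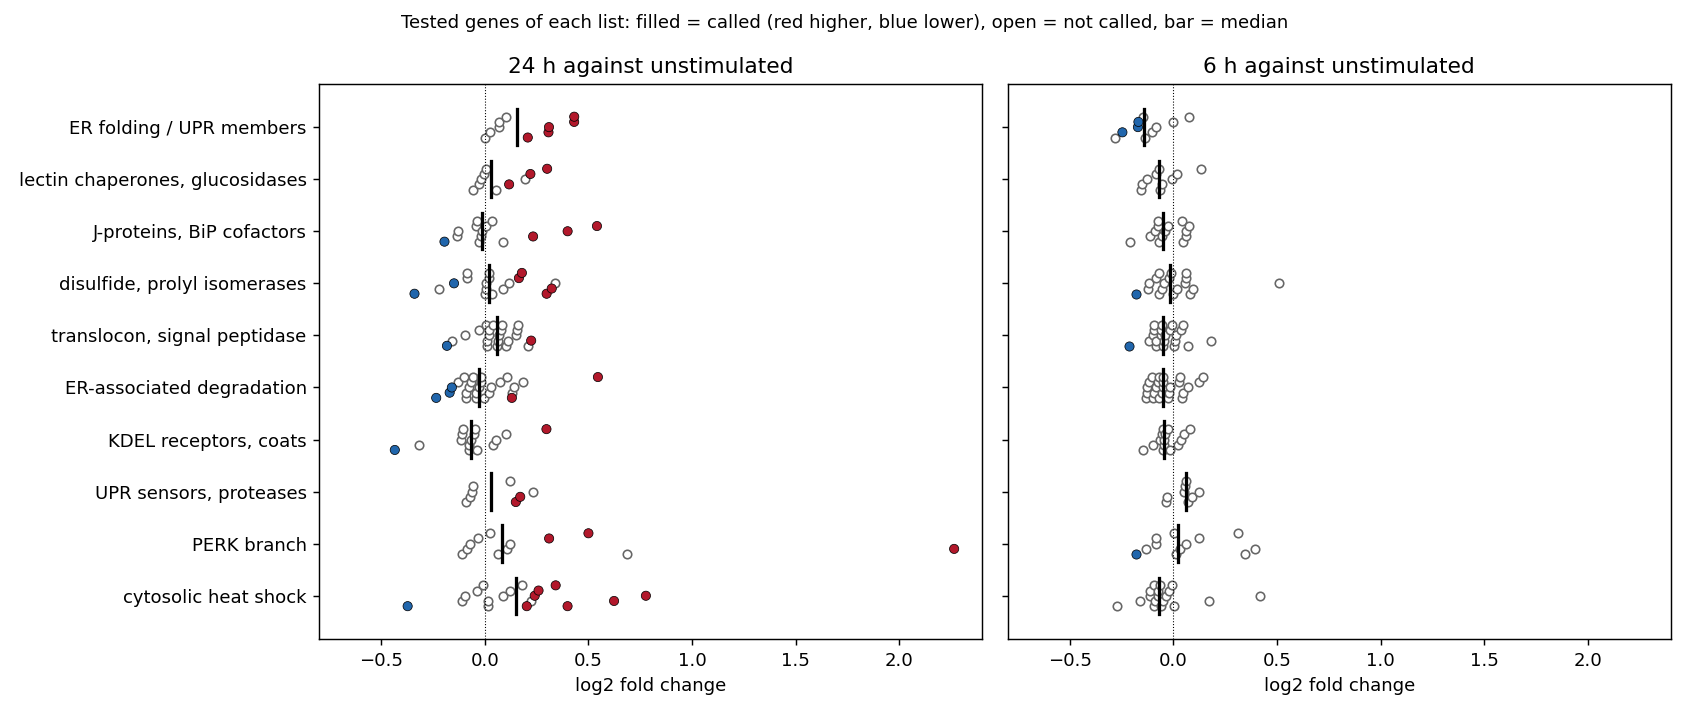
Log2 fold change of each tested gene in the 10-gene set, the 8 pathway lists and the cytosolic heat shock list, for 24 h against unstimulated cells (left) and 6 h against unstimulated cells (right); filled points passed an edgeR adjusted p under 0.05, open points did not, and bars are medians. At 24 h the 10-gene set has a median of 0.15 and most pathway lists lie near 0, with Atf3 of the PERK branch at 2.27.

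Heat shock proteins of the cytosol, counted for comparison, gave 7 higher and 1 lower of 18 tested after 24 h. Their median log2 fold change was 0.15, and of all genes tested 10.3% were higher and 8.35% lower. Hspb1, Hspa4l and Bag3 had 0.78 ± 0.20, 0.62 ± 0.06 and 0.40 ± 0.08 (edgeR adjusted p = 0.00589, 2.11e-09 and 0.000974). The difference between this list and the ER lists was not tested.

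Markers of cell state moved as well, at 24 h and after the blocked exposures. For 24 h against unstimulated cells, 10.3% of all genes tested were higher and 8.35% lower. The summed level of the 10 B cell markers was 3034 to 3101 CPM in unstimulated cells, 3060 to 3087 after 1 h, 3103 to 3211 after 6 h and 2786 to 2813 after 24 h, with 2 higher and 6 lower in 24 h than in unstimulated cells. The 9 plasma cell markers summed to 1832 to 1943 CPM in unstimulated cells, 1940 to 2036 after 1 h, 1986 to 2056 after 6 h and 1619 to 1672 after 24 h. Most of this sum came from Pou2af1, at 940.4 ± 41.1 CPM in unstimulated cells, and Irf4. Of 7 tested, 2 were higher and 2 lower at 24 h. Prdm1, which encodes the plasma cell regulator BLIMP-1, averaged 1.73 ± 0.286 CPM in 24 h cells and 0.814 ± 0.410 CPM in unstimulated cells (edgeR adjusted p = 0.00618; 0.0524 without unstimulated replicate 3), and Irf4 averaged 310.8 ± 8.40 CPM in 24 h cells and 455.0 ± 19.2 CPM in unstimulated cells (adjusted p = 3.22e-11). After the blocked exposures Irf4 was instead higher than in unstimulated cells, at 555.2 ± 16.1 CPM after 1 h and 568.8 ± 18.4 CPM after 6 h (edgeR adjusted p = 0.000416 and 2.06e-05), the one call among the plasma cell markers at either time. Among the B cell markers the one call after 1 h and after 6 h was Ebf1, with 208.1 ± 10.7 CPM in unstimulated cells, 244.8 ± 8.37 after 1 h, 260.1 ± 17.8 after 6 h and 175.4 ± 1.96 after 24 h; relative to unstimulated cells it was higher after 1 h (adjusted p = 0.0175) and 6 h (0.000136) and lower after 24 h (0.000340). Its call after 1 h was not made without unstimulated replicate 1 or 3 (0.154 in both) or IFNg_1h replicate 1 or 3 (0.153 and 0.0704). Jchain, which joins secreted antibody, had 0 to 9 counts per library and the plasma cell receptor Tnfrsf17 0 to 6. The 8 T cell markers summed to 22.3 to 32.4 CPM over all libraries, mostly from Cd2, and the 9 myeloid markers to 5.35 to 7.01 CPM. The part of these shifts in the differences of the ER genes at 6 h and 24 h was not tested.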

How the data were processed

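The authors deposited 1 table of raw whole-number counts per gene for the 12 samples. The tools listed in the submitters' processing notes are Picard, featureCounts 1.4.3-p1 and STAR 2.5.2a, with build mm10. Which annotation release and which strand setting were used is not given in the sources used here. Per the labels' protocols, 500 ng of total RNA gave stranded poly(A) libraries with 10 PCR cycles, read as 125 bp pairs. Counts were used as deposited. Of the values from 1 to 20, between 69.9% and 73.9% were even in each library, as when both mates of a pair are counted, which makes a count less than an independent molecule; counts halved to read pairs were an alternative.

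Gene names came from a reference table (53274 of 53379 identifiers matched) and coordinates (1-based, GRCm38) and exon lengths from GENCODE M21, which held 14281 of the 14299 tested genes, 12759 with the same version; that of Sdf2l1 differs. The filter on low counts was filterByExpr by group, and scaling was by TMM. All 12 libraries entered 1 edgeR 4.0.16 fit (R 4.3.3) with robust quasi-likelihood F tests, 8 residual degrees of freedom and a common biological coefficient of variation of 0.0579; the SE was taken as the absolute log2 fold change over the root of its F value. No pair of libraries within a group agreed within the sampling noise of independent counts (chi-square per degree of freedom 2.52 to 8.48). Counting of both mates would raise these values, by an amount that was not measured.

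The 10 genes and the lists were chosen with earlier results of these data known. Genes named are the 10, a set of 12 pathway genes, and from each list up to 3 called genes with the largest change and a mean of at least 1 CPM; Cnpy3 and the genes named with 0 or near 0 counts were chosen after their values were seen. Alternatives were DESeq2 1.42.0, RLE factors, at least 1 count in any library, the 6 libraries compared, a replicate block, removal of length or GC trends with and without the block, halved counts, and each library left out. The fits were tested on simulated data. Results of some genes and motifs are not reported here.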

Additional observations from a re-analysis of the deposited data

Results flagged for a closer look

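The 24 h effect differed from the blocked exposures' effects for most of the 10 genes. All effects are set against the same unstimulated libraries, so the difference of 2 effects equals the direct comparison of the exposures, which edgeR tested over all 14299 genes. The effect of 24 h less that of 6 h was 0.59 on the log2 scale for Xbp1, 0.53 for Sdf2l1, 0.45 for Manf, 0.45 for Hspa5 and 0.43 for Pdia4. It was 0.25 for Hsp90b1, 0.24 for Pdia6, 0.17 for Hyou1 and 0.15 for P4hb. Fitted effects of 24 h and 6 h against unstimulated cells lay on opposite sides of 0 for all genes except Hyou1 and Herpud1. For Xbp1, Manf, Hsp90b1 and Pdia6 they were 0.31, 0.21, 0.10 and 0.07 for 24 h and -0.28, -0.25, -0.15 and -0.17 for 6 h. For Hspa5, Sdf2l1, P4hb and Pdia4 they were 0.31, 0.43, 0.07 and 0.43 for 24 h and -0.14, -0.10, -0.08 and -0.0028 for 6 h. Only Manf was called in both comparisons. Xbp1, Hspa5, Sdf2l1 and Pdia4 were called at 24 h only, Pdia6 at 6 h only, and Hsp90b1 and P4hb in neither.

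The effect of 24 h less that of 1 h was 0.63 for Sdf2l1, 0.45 for Pdia4, 0.36 for Hspa5, 0.34 for Xbp1 and 0.33 for Manf. It was 0.19 for Pdia6, 0.18 for Hsp90b1 and 0.15 for P4hb. Herpud1 passed in neither comparison, and Hyou1 did not pass against 1 h.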

How the results depend on the processing

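Of 960 recomputed fold changes of the 10 genes, 902 kept their direction and their side of the threshold, 19 lost a call and 14 gained one. The other 25 turned direction without a call in either fit; they belong to 7 fold changes that were at most 0.032 in size on the log2 scale as reported, those of Xbp1 and Pdia4 for 1 h, Pdia4 for 6 h and Hyou1 and Herpud1 for 24 h against unstimulated cells, and of Pdia4 and P4hb for 6 h against 1 h. The 5 calls at 24 h against unstimulated cells were 4 to 6 when single libraries were left out, the 9 against 6 h were 8 to 9 and the 8 against 1 h were 8. The 3 calls at 6 h against unstimulated cells became 5 with at least 1 count in any library, 0 in the fit to the 6 libraries compared, 5 with the GC trend removed, 5 with the replicate block and the GC trend removed, and 0 to 5 without single libraries. The comparisons of 1 h with unstimulated cells and of 6 h with 1 h had 0 calls among the 10 in every alternative run.

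Among pathway genes, the 3 calls at 6 h against unstimulated cells became 0 in the fit to the 6 libraries and 0 to 6 without single libraries. The 0 at 1 h became 1 with DESeq2, 1 with at least 1 count, 1 in the fit to the 6 libraries, and 0 to 1 without single libraries; the 0 for 6 h against 1 h became 1 with at least 1 count. Without single libraries the 27 calls at 24 h against unstimulated cells were 20 to 29, the 32 against 6 h 21 to 38 and the 33 against 1 h 24 to 27. Over all genes, the 228 calls at 6 h against unstimulated cells became 374 with DESeq2, 413 with at least 1 count and 95 in the fit to the 6 libraries; the 60 at 1 h became 128, 174 and 104, and the 14 for 6 h against 1 h became 34, 36 and 9. Without single libraries they were 89 to 531, 15 to 114 and 8 to 24, beside 1816 to 2520 at 24 h against unstimulated cells, 1682 to 2798 against 6 h and 1893 to 2201 against 1 h. The cause of these changes was not tested, except that smaller fits hold fewer libraries.

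No pairing by replicate number was seen in the counts: same-numbered libraries had deviations correlated between -0.066 and 0.062 over 18 pairs, 0 above 0.1. Low correlations do not show that same-numbered samples were cultured or processed apart. With the replicate block, 5, 3, 9 and 8 of the 10 genes were called for 24 h and 6 h against unstimulated cells and for 24 h against 6 h and 1 h, and 27, 3, 33 and 34 pathway genes. Atf6b lost its call at 24 h under the block (adjusted p = 0.0506).

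Each of the 10 genes had at least 693 counts in each library. With 3 samples a group, fold changes as large as -0.28 on the log2 scale (Xbp1 at 6 h) did not pass, and what part depth has in this was not tested.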

Other observations

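The promoters of Pdia4, P4hb, Sdf2l1 and Xbp1 held neither ERSE nor ERSE-II within 250 bases of the RefSeq start. Their log2 fold changes of 24 h over unstimulated cells were 0.43, 0.07, 0.43 and 0.31. Of the promoters with a match, Hspa5 had 0.31, Hsp90b1, with a pair of matches, 0.10, Pdia6 0.07 and Herpud1 0.02. With 8 promoters this is a list of values and no relation was tested.

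The median exon length of the 10 genes was 3386 bases, against 3709 bases for the genes tested, and their median GC content 51.7%, against 49.3%.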
